A study of Mus musculus with 18 samples.

Results

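The genes described here encode the presynaptic vesicle and release machinery: 32 member genes for SNARE proteins, synaptotagmins, vesicle proteins, complexins and priming factors, the active zone, endocytosis and the growth cone. The members were taken as every probe set of the array whose platform gene symbol was 1 of these 32 genes, which gave 86 of the 45101 probe sets and all 32 of the named genes among 18194 genes with a symbol of their own. A probe set is a group of short probes for 1 transcript. Of these 86, 78 were bright enough to test and 8 were too dim, and 32 of 32 genes had at least 1 tested probe set. Where a gene had several, it was read from the brightest, and the others are described separately.

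A synaptic vesicle fuses with the presynaptic membrane when the vesicle SNARE synaptobrevin (the Vamp genes) zips up with the membrane SNAREs syntaxin (Stx1a) and SNAP-25 (Snap25). Complexins and synaptotagmins tie that step to calcium, Munc13 and RIM proteins prepare vesicles at the active zone, and dynamin, amphiphysin, endophilin and synaptojanin retrieve the membrane afterwards. The product of Ppt1, palmitoyl-protein thioesterase 1, strips palmitate off proteins in the lysosome. SNAP-25, GAP-43 and synaptotagmin 1 are known to carry palmitate. Loss of the enzyme causes infantile neuronal ceroid lipofuscinosis, a storage disease in which neurons die. The arrays measured RNA, not protein or its palmitate.

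RNA from Ppt1 knockout mice and from wild-type mice was measured at 3, 5 and 8 months of age on Affymetrix mouse arrays, with 3 arrays for every combination of genotype and age, or 6 groups. Each group had 1 male and 2 females, except the 8-month knockout, which had 2 males and 1 female. The sources used here do not give the strain, the targeting construct or any treatment. The labels name both brain and cochlea as the source, and do not say what was dissected or that the 3 arrays of a group came from separate mice, so the p-values reflect how much these samples varied, a spread that may be technical. Of 12 cochlea markers, 9 were too dim to test and Coch had a mean signal of 171, whereas 19 of 20 general neuronal genes were tested.

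Values are signals on a linear scale as deposited, and changes are differences of log2(signal + 16), knockout minus wild type, ± the standard error of the limma fit over all 18 arrays. A probe set passed at a Benjamini-Hochberg adjusted p under 0.05 over 27022 tested probe sets. Array medians lay between 43.2 and 46.1, and 3 arrays a group limit the precision. Ppt1 itself had a mean signal of 595 ± 29.3 on the 9 wild-type arrays and of 12.9 ± 7.66 on the 9 knockout arrays (SD), with no overlap. Replicates 1 and 2 of the 8-month knockout stood apart: their summed microglia marker signals were 13915 and 16095, against 8993 in replicate 3 and 5288 to 5637 in the wild type of that age. Their summed cerebellum marker signals were 13987 and 14315, against 19404 in replicate 3 and 19700 to 20730 in the wild type. The actin 5-prime to 3-prime ratio, a sign of RNA integrity, was 0.482, 0.448 and 0.432 in the 8-month knockout and 0.525, 0.501 and 0.510 in the wild type, without overlap. The part of these differences in the results was not tested. Changes are given with and without the 2 arrays for the member genes that passed, and most other results with all arrays only.

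Averaged over the ages, presynaptic transcripts were modestly lower in the knockout. Of the 32 member genes, 12 fell and 0 rose, against 6.43% of all 12496 tested genes that fell and 8.39% that rose. The 12 were the SNARE gene Stx1a, the synaptotagmins Syt1 and Syt4, the vesicle genes Syn1 and Slc17a7, the complexins Cplx1 and Cplx2, the priming factor Unc13a, the active zone genes Rab3a, Rims1 and Rims2, and the dynamin gene Dnm1. Their changes ran from -0.29 (Unc13a, 0.816-fold) to -0.12 (Dnm1, 0.918-fold). The median change of the 32 genes was -0.10, and that of all tested genes -0.01. Of the 32 genes, 26 lay below 0, and the changes ran from -0.29 to 0.08. In bulk samples, fewer cells of a type and less RNA per cell cannot be told apart. Without replicates 1 and 2 of the 8-month knockout, 1 array remained in that group. The changes of the 12 over ages then ran from -0.26 (Slc17a7) to -0.11 (Cplx1), and the median of the 32 genes was -0.09.

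**Figure D1:**
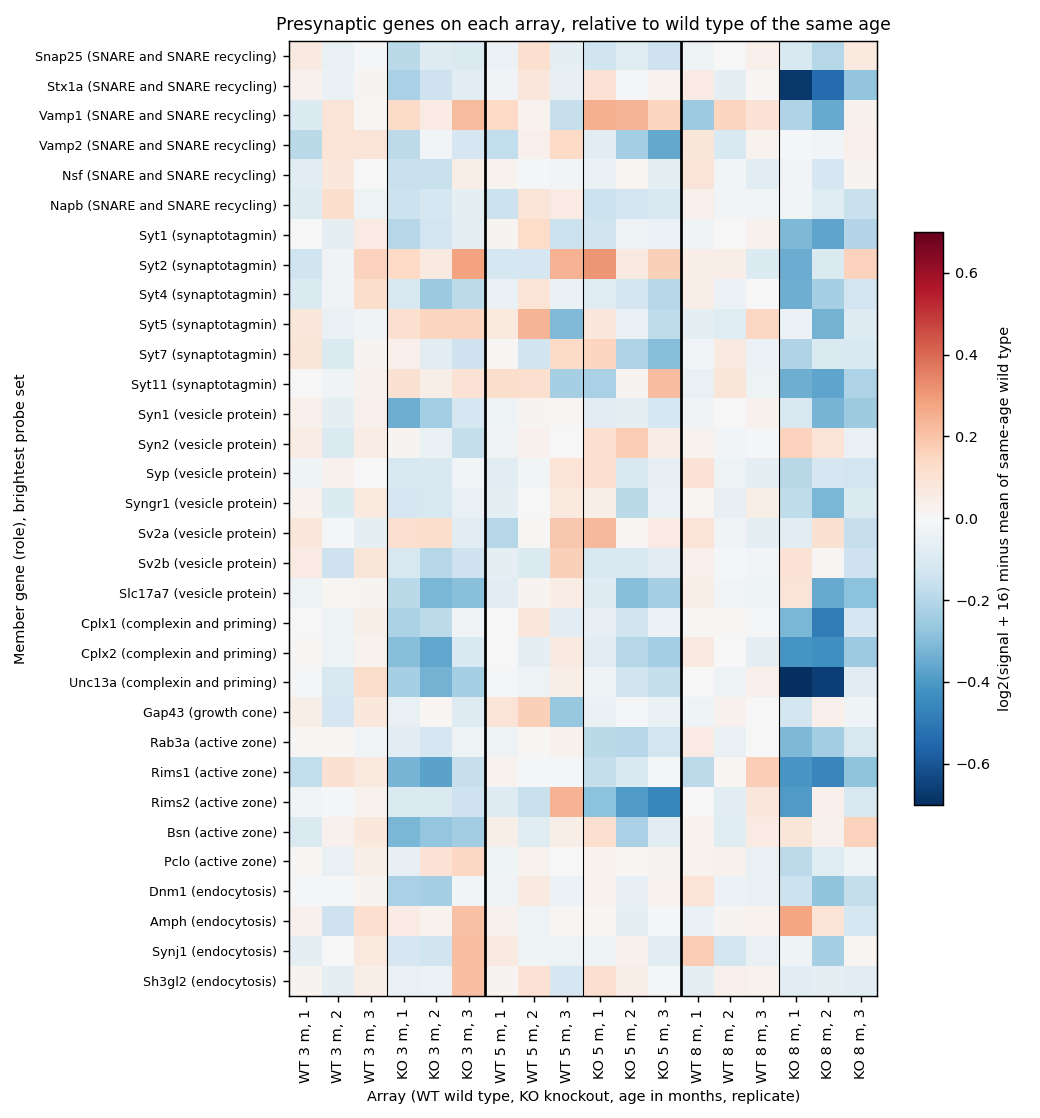
Signals of the 32 presynaptic genes on the 18 arrays (rows: genes with their role, columns: arrays by age, genotype and replicate), as log2(signal + 16) minus the mean of the wild-type arrays of the same age, blue for lower and red for higher. Most knockout columns are bluer than their wild-type neighbours, and the strongest blue lies in Stx1a and Unc13a in replicates 1 and 2 of the 8-month knockout.

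The calls averaged over ages are counted here by role, where 6.43% of all genes were called lower. Each role held few genes. The complexin and priming group had 3 of 3 genes lower with a median of -0.27, and the active zone 3 of 5 with a median of -0.16. Among the synaptotagmins 2 of 6 passed (median -0.09), among the vesicle proteins 2 of 7 (median -0.09), in the SNARE group 1 of 6 (median -0.10) and among the endocytosis genes 1 of 4 (median -0.02). Gap43, the growth cone gene, did not pass. Differences between roles were not tested.

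Promoter sequence is shown for the 4 called members with the largest change averaged over ages that had 1 start in the table, to set beside each other the upstream regions of genes that were lower together. Each line gives the 250 bases before the annotated start, 5′ to 3′ on the gene's strand, from RefSeq (GRCm38.p6). Capitals mark the GC box, the letters GGGCGG on either strand, to which Sp1-family factors are known to bind. Unc13a lies at chr8:71671758-71672007 on the minus strand, Cplx2 at chr13:54302306-54302555 on the plus strand, Rims1 at chr1:22806159-22806408 on the minus strand and Slc17a7 at chr7:45163671-45163920 on the plus strand.
Unc13a: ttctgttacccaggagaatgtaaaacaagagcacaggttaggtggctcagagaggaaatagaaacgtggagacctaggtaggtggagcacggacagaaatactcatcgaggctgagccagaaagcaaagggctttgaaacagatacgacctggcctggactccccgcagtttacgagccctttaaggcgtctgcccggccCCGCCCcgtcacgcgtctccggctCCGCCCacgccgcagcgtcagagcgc
Cplx2: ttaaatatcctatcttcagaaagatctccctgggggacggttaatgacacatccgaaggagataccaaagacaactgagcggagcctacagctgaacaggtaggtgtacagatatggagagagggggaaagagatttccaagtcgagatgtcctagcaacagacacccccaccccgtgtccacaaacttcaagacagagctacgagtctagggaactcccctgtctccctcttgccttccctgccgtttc
Rims1: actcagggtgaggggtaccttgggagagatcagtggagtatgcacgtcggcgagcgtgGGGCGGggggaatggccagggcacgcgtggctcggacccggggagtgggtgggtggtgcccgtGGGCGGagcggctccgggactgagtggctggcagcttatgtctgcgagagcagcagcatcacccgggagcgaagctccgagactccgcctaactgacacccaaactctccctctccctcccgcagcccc
Slc17a7: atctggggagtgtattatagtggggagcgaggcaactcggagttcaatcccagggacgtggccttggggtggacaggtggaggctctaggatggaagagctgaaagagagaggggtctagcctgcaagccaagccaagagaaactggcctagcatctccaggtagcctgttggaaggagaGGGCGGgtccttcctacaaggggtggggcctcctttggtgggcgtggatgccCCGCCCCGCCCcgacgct
GC boxes begin 50 and 26 bases before the start in Unc13a, 192 and 129 in Rims1, and 70, 18 and 13 in Slc17a7, where the last pair overlap. None was found in the 250 bases of Cplx2. Of the 32 members, 25 matched the promoter table by symbol, and 17 of these 25 held a GC box, or 68.0%, against 35.4% of all 27025 genes in the table. Among the 10 called members with a promoter in the table, 7 held one. The GC content of the members' promoters had a median of 61.2%, against 52.4% over all genes, and the GC box is itself made of G and C. The cAMP response element TGACGTCA was in 2 of 25 (Syn1 and Sh3gl2) against 1.77% of all genes, and TATAAA in 1 (Sv2b) against 14.3%. Of the repressor REST's site, the left part TCAGCACC was in 1 (Syn1) against 1.49%, and the right part GGACAGC in 0 against 6.14%. A gene was counted if any of its starts in the table held the motif. The 27025 genes were not limited to those tested on the arrays. All motifs were read on both strands, and a match is a description of the letters only.

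Among the SNARE genes, only syntaxin 1A passed from its brightest probe set. Stx1a read 1459, 1384 and 1448 at 3 months, 1283, 1385 and 1258 at 5 months and 1520.4, 1390.0 and 1467 at 8 months in the wild type (replicates 1, 2 and 3 in this order here and below). In the knockout Stx1a read 1218, 1292 and 1354 at 3 months, 1405, 1293 and 1332 at 5 months and 908, 999.6 and 1200.4 at 8 months. The 3 knockout arrays lay below the 3 wild-type arrays at 3 and at 8 months, and the genotypes overlapped at 5 months. Averaged over ages Stx1a fell by 0.21 ± 0.05 (log2, adjusted p = 0.00584). At 8 months it fell by 0.50 ± 0.08 (adjusted p = 0.000436, 0.705-fold). Without replicates 1 and 2 of the 8-month knockout, the change was -0.13 over ages (adjusted p = 0.0633) and -0.29 at 8 months (adjusted p = 0.135).

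SNAP-25, the other membrane SNARE, came close to the threshold. Snap25 read 9256, 8550.3 and 8826 at 3 months, 8806, 9801 and 8638 at 5 months and 8615, 8861 and 9043 at 8 months in the wild type. In the knockout Snap25 read 7785, 8337 and 8257 at 3 months, 8216, 8549 and 8211 at 5 months and 8208, 7682 and 9282 at 8 months. All knockout arrays were below the wild-type arrays at 3 and 5 months, while replicate 3 was above the wild type at 8 months. The change averaged over ages was -0.11 ± 0.04 (adjusted p = 0.0559). The brightest probe sets of the synaptobrevins differed by 0.06 ± 0.06 for Vamp1 and -0.11 ± 0.05 for Vamp2 (adjusted p = 0.603 and 0.214). Nsf, the ATPase that takes spent SNARE complexes apart, differed by -0.05 ± 0.04 (adjusted p = 0.392), and its adaptor Napb by -0.10 ± 0.04 (adjusted p = 0.0833).

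Of the 6 synaptotagmins, Syt1 and Syt4 fell in the average over ages and Syt1, Syt4 and Syt11 at 8 months. Syt1 encodes the fast calcium sensor of release. Syt1 read 5474, 5233 and 5683 at 3 months, 5373, 5815 and 4787 at 5 months and 5859.9, 5947 and 6078 at 8 months in the wild type. In the knockout Syt1 read 4748, 4971 and 5222 at 3 months, 4809.9, 5176 and 5162 at 5 months and 4794, 4620.1 and 5175 at 8 months. At 3 and 8 months every knockout array was below every wild-type array, and at 5 months replicate 3 of the wild type was the lowest of all 6. Syt1 fell by 0.17 ± 0.04 over ages (adjusted p = 0.00631) and fell by 0.29 ± 0.07 at 8 months (adjusted p = 0.00788). These became -0.13 (adjusted p = 0.0758) and -0.18 (adjusted p = 0.421) without the 2 arrays.

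Syt4 encodes a family member that is not a fast calcium sensor. Syt4 read 1046, 1105 and 1225 at 3 months, 1071, 1186 and 1072 at 5 months and 1202, 1131 and 1164 at 8 months in the wild type. In the knockout Syt4 read 1037, 935 and 989 at 3 months, 1045, 1014 and 962 at 5 months and 916, 989 and 1059 at 8 months. The genotypes did not overlap at any of the 3 ages at this brightest probe set. The dimmer Syt4 probe set overlapped at 3 months, with means of 623 for knockout and 590 for wild-type arrays, and at 8 months (587 against 591). At 5 months it was separate and lower (601 against 762). Syt4 fell by 0.19 ± 0.04 over ages (adjusted p = 0.00668) and fell by 0.24 ± 0.08 at 8 months (adjusted p = 0.0493), and without the 2 arrays the values were -0.15 (adjusted p = 0.0526) and -0.14 (adjusted p = 0.599).

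Syt11, another such member, passed at 8 months only. Syt11 read 2136, 2102 and 2184 at 3 months, 2049.7, 2029.8 and 1596 at 5 months and 2174, 2398 and 2204 at 8 months in the wild type. In the knockout Syt11 read 2309, 2201 and 2297 at 3 months, 1602, 1907 and 2188 at 5 months and 1780.0, 1745 and 1941 at 8 months. The knockout arrays were above the wild type at 3 months, overlapped it at 5 months and were below it at 8 months. At 8 months Syt11 fell by 0.30 ± 0.10 (adjusted p = 0.0482), and the 8-month effect minus the 3-month effect was -0.38 ± 0.14 (adjusted p = 0.184). With the actin ratio as a covariate the 8-month change was -0.14 (adjusted p = 0.388), and without the 2 arrays it was -0.19 (adjusted p = 0.593). The other 4 Syt11 probe sets differed by -0.11 ± 0.06, 0.00 ± 0.06, 0.11 ± 0.08 and 0.14 ± 0.10 at 8 months and did not pass. Averaged over ages, the fast sensor Syt2 differed by 0.08 ± 0.07, Syt5 by -0.03 ± 0.07 and the slower sensor Syt7 by -0.12 ± 0.05 (adjusted p = 0.516, 0.818 and 0.158).

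Of the 7 vesicle proteins, Syn1 and Slc17a7 were lower averaged over ages. Synapsin 1, the product of Syn1, tethers vesicles in the reserve pool. Syn1 read 2392, 2220.1 and 2388 at 3 months, 2072, 2144 and 2128 at 5 months and 2163, 2191 and 2243 at 8 months in the wild type. In the knockout Syn1 read 1836, 1972 and 2151 at 3 months, 2003, 2019 and 1941 at 5 months and 2029.8, 1754 and 1847 at 8 months. The genotypes were separate at each age. Syn1 fell by 0.18 ± 0.04 over ages (adjusted p = 0.0027) and fell by 0.23 ± 0.07 at 8 months (adjusted p = 0.0314). Without the 2 arrays the change over ages was -0.18 (adjusted p = 0.00618), and that at 8 months was -0.23 (adjusted p = 0.23).

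Slc17a7 encodes VGLUT1, which loads vesicles with glutamate. Slc17a7 read 1022, 1059 and 1062 at 3 months, 927, 992 and 1014 at 5 months and 1025, 979 and 973 at 8 months in the wild type. In the knockout Slc17a7 read 916, 837 and 851 at 3 months, 915, 791 and 828 at 5 months and 1055, 773 and 810.5 at 8 months. The genotypes were separate at 3 and 5 months, and at 8 months replicate 1 of the knockout was above all wild-type arrays. Over ages Slc17a7 fell by 0.23 ± 0.05 (adjusted p = 0.00426), and at 8 months the difference was -0.21 ± 0.09 (adjusted p = 0.136). Leaving out replicate 1 of that group alone gave an 8-month change of -0.33 (adjusted p = 0.0113), and leaving out replicates 1 and 2 gave -0.31 (adjusted p = 0.118).

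The remaining vesicle proteins did not pass in the average over ages from their brightest probe sets. Synaptophysin (Syp), an abundant vesicle membrane protein, differed by -0.08 ± 0.04 and synaptogyrin 1 (Syngr1) by -0.12 ± 0.04 (adjusted p = 0.183 and 0.0513). At 8 months both genes were lower on all 3 knockout arrays than on any wild-type array, with changes of -0.15 ± 0.07 and -0.22 ± 0.07 (adjusted p = 0.166 and 0.0584). Synapsin 2 (Syn2) and the vesicle glycoproteins Sv2a and Sv2b differed by 0.04 ± 0.04, 0.04 ± 0.06 and -0.09 ± 0.05 over ages (adjusted p = 0.634, 0.745 and 0.232).

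Both complexins and Munc13-1 were lower. Complexins bind the assembled SNARE complex and hold it until calcium arrives. Of the members' brightest probe sets, that of Cplx2 had the smallest adjusted p over ages. Cplx2 read 1561, 1510.1 and 1578 at 3 months, 1584, 1509 and 1647 at 5 months and 1629, 1562 and 1482 at 8 months in the wild type. In the knockout Cplx2 read 1258, 1199 and 1436 at 3 months, 1493, 1371 and 1334 at 5 months and 1166, 1150.1 and 1304 at 8 months. At none of the ages did the genotypes overlap at this brightest probe set. The dimmest Cplx2 probe set overlapped between genotypes at every age, with 3-month means of 906 for knockout and 863 for wild-type arrays. Its means were 852 against 924 at 5 months and 819 against 853 at 8 months. The remaining Cplx2 probe set was separate and lower at each age, with 3-month means of 773 against 946. Cplx2 fell by 0.27 ± 0.04 over ages (adjusted p = 0.00014, 0.829-fold) and fell by 0.38 ± 0.07 at 8 months (adjusted p = 0.00184). Without the 2 arrays the values were -0.24 (adjusted p = 0.00246) and -0.28 (adjusted p = 0.196).

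Cplx1 read 4132, 4029.9 and 4252 at 3 months, 4076, 4310.3 and 3855 at 5 months and 4368, 4364 and 4307 at 8 months in the wild type. In the knockout Cplx1 read 3548, 3647 and 4066 at 3 months, 3915, 3696 and 3956 at 5 months and 3474, 3089 and 4003 at 8 months. The genotypes overlapped at 3 and 5 months and were separate at 8 months, where replicate 3 of the knockout was the closest to the wild type. Cplx1 fell by 0.18 ± 0.04 over ages (adjusted p = 0.00708) and fell by 0.32 ± 0.08 at 8 months (adjusted p = 0.00823). Without the 2 arrays these were -0.11 (adjusted p = 0.105) and -0.11 (adjusted p = 0.637).

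Unc13a encodes Munc13-1, which opens syntaxin so that vesicles can be primed. Unc13a read 423, 393 and 464 at 3 months, 371, 365 and 387 at 5 months and 379, 370.1 and 389 at 8 months in the wild type. In the knockout Unc13a read 359.8, 335 and 360.0 at 3 months, 366, 338 and 332 at 5 months and 227, 234 and 359 at 8 months. The genotypes were separate at 3 months, with the knockout lower, and overlapped at 5 months. The 8-month knockout was split, with replicates 1 and 2 far below replicate 3, and replicate 3 still below the wild type. Over ages Unc13a fell by 0.29 ± 0.07 (adjusted p = 0.00657) and at 8 months it fell by 0.50 ± 0.12 (adjusted p = 0.00951). Without the 2 arrays the values were -0.16 (adjusted p = 0.0864) and -0.10 (adjusted p = 0.781).

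**Figure D2:**
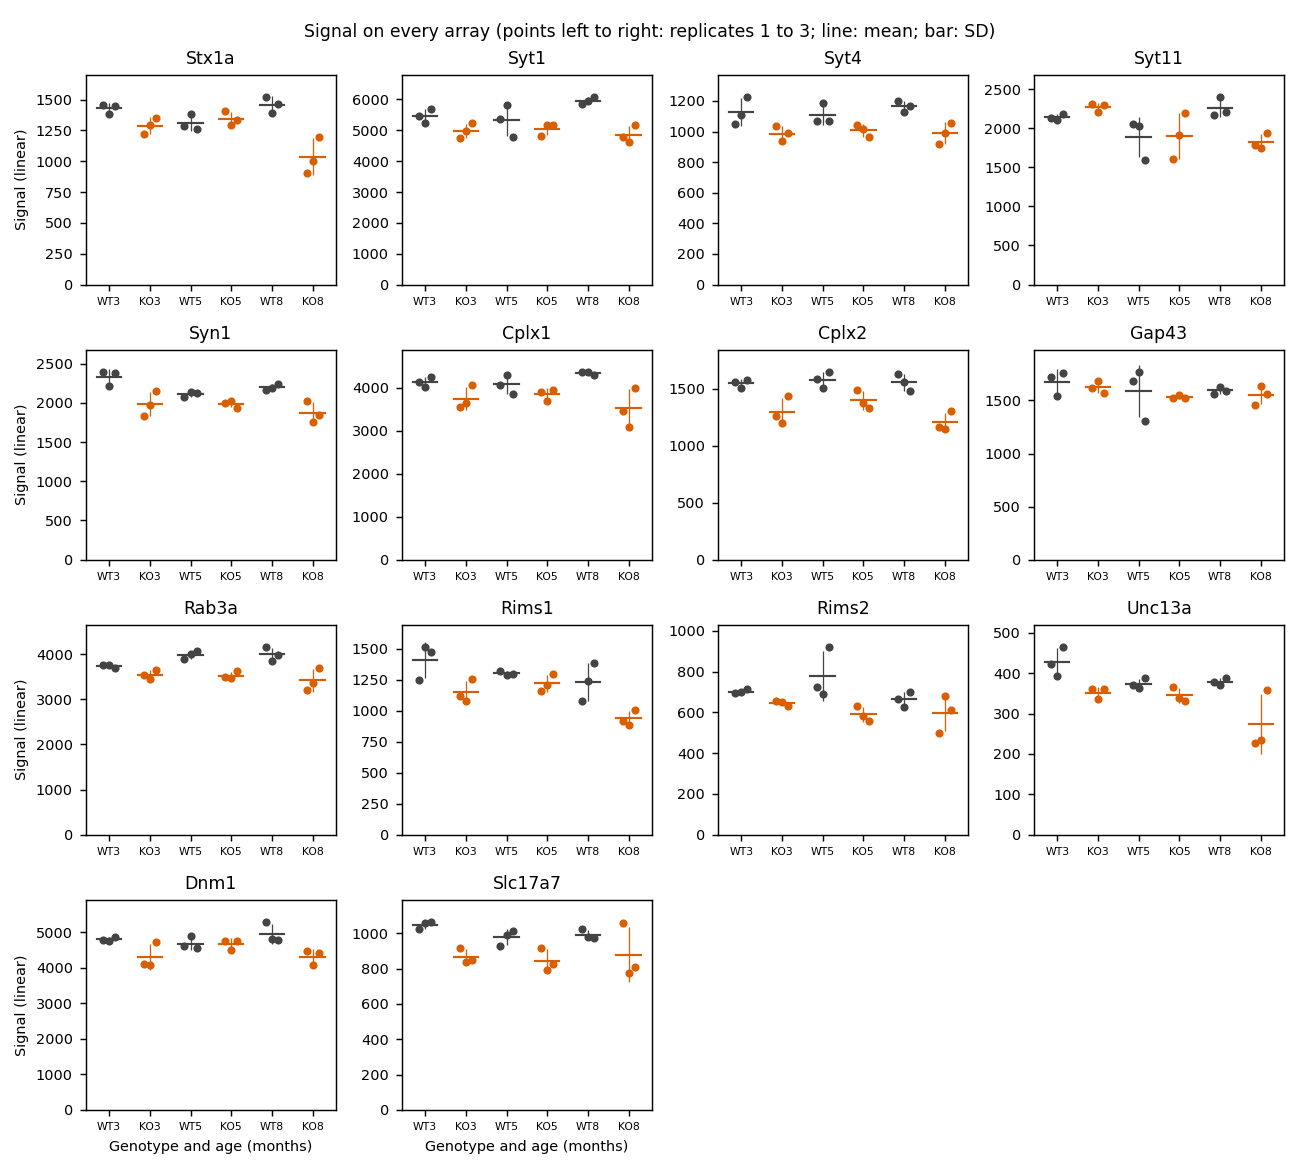
Signal on the linear scale of 14 presynaptic genes, brightest probe set, on every array (wild type grey, knockout orange, by age in months; points are replicates 1 to 3 from left to right, horizontal lines group means, vertical bars SD, n = 3 a group). Cplx2, Syn1, Syt4 and Rab3a are lower on all knockout arrays of each age. Unc13a and Stx1a are lower on all knockout arrays at 3 and 8 months, and lowest in replicates 1 and 2 of the 8-month knockout.

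In the active zone, the vesicle GTPase Rab3a and both RIM scaffolds fell, and the giant scaffolds Bassoon and Piccolo did not pass from their brightest probe sets. Rab3a read 3760.3, 3753 and 3689.9 at 3 months, 3883, 4002 and 4059 at 5 months and 4152, 3849.6 and 3979.6 at 8 months in the wild type. In the knockout Rab3a read 3539, 3439.6 and 3639 at 3 months, 3494, 3464 and 3619.8 at 5 months and 3202, 3368 and 3693 at 8 months. The genotypes were separate at all 3 ages. Rab3a fell by 0.16 ± 0.03 over ages (adjusted p = 0.00237) and fell by 0.23 ± 0.06 at 8 months (adjusted p = 0.0136). With the 2 arrays left out, the change over ages was -0.12 (adjusted p = 0.0317), and that at 8 months was -0.12 (adjusted p = 0.535).

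RIM proteins bind Rab3 and Munc13 and hold calcium channels near the vesicles. Rims1 read 1246, 1514 and 1476 at 3 months, 1323, 1289.9 and 1294 at 5 months and 1080.0, 1239.8 and 1385 at 8 months in the wild type. In the knockout Rims1 read 1119, 1082 and 1255 at 3 months, 1160.2, 1211 and 1295 at 5 months and 922, 889 and 1006 at 8 months. Rims1 overlapped between genotypes at 3 and 5 months and was separate at 8 months. Over ages Rims1 fell by 0.24 ± 0.05 (adjusted p = 0.00179) and at 8 months it fell by 0.35 ± 0.09 (adjusted p = 0.00974), and without the 2 arrays the values were -0.19 (adjusted p = 0.0231) and -0.20 (adjusted p = 0.463).

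Rims2 read 693, 697 and 715 at 3 months, 725, 692 and 919 at 5 months and 664, 626 and 699.5 at 8 months in the wild type. In the knockout Rims2 read 653, 652 and 633 at 3 months, 629.9, 583 and 559 at 5 months and 500.1, 679.5 and 611 at 8 months. Rims2 was separate between genotypes at 3 and 5 months and overlapped at 8 months. Over ages Rims2 fell by 0.21 ± 0.06 (adjusted p = 0.0197), and its difference was -0.38 ± 0.10 at 5 months (adjusted p = 0.0537) and -0.14 ± 0.10 at 8 months (adjusted p = 0.422). The 8-month value was -0.26 without replicate 2 of the knockout and -0.04 without its replicate 1. Without both, the change was -0.20 over ages and -0.11 at 8 months.

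Bassoon (Bsn) read 673, 697 and 711 in the 3-month knockout and 786, 862 and 888 in the 3-month wild type, without overlap. At 8 months its knockout signals were 797, 764 and 838 and its wild-type signals 763, 706 and 780.2, with overlap. The Bsn differences were -0.28 ± 0.08 and 0.08 ± 0.08 (adjusted p = 0.143 and 0.61), and the 8-month effect minus the 3-month effect was 0.36 ± 0.12 (adjusted p = 0.15). Piccolo (Pclo) differed by 0.00 ± 0.04 over ages at its brightest probe set (adjusted p = 0.977).

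Among the 4 endocytosis genes, dynamin 1, the GTPase that pinches off retrieved vesicles, passed. Dnm1 read 4777, 4755 and 4858 at 3 months, 4597, 4881 and 4550.0 at 5 months and 5274, 4804 and 4769.6 at 8 months in the wild type. In the knockout Dnm1 read 4103, 4076 and 4733 at 3 months, 4762, 4486 and 4755 at 5 months and 4457, 4060.3 and 4406 at 8 months. Dnm1 was separate between genotypes at 3 and 8 months and overlapped at 5 months. Dnm1 fell by 0.12 ± 0.04 over ages (adjusted p = 0.0286) and fell by 0.21 ± 0.06 at 8 months (adjusted p = 0.0378). These were -0.11 (adjusted p = 0.121) and -0.17 (adjusted p = 0.425) without the 2 arrays. Amphiphysin (Amph), which recruits dynamin, synaptojanin 1 (Synj1), a lipid phosphatase of vesicle uncoating, and endophilin A1 (Sh3gl2) differed by 0.05 ± 0.05, -0.05 ± 0.05 and 0.01 ± 0.04 over ages (adjusted p = 0.559, 0.613 and 0.943).

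Gap43, a palmitoylated protein of growth cones and presynaptic terminals, did not pass in any comparison. Gap43 read 1724, 1542 and 1761 at 3 months, 1682, 1767 and 1306 at 5 months and 1560.3, 1628 and 1594 at 8 months in the wild type. In the knockout Gap43 read 1614, 1688 and 1572 at 3 months, 1521, 1554 and 1524 at 5 months and 1458, 1632 and 1563 at 8 months. The genotypes overlapped at every age, and the change over ages was -0.04 ± 0.05 (adjusted p = 0.673).

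With all 18 arrays, calls were made at 8 months and not earlier, and these counts depended on the arrays used. With all arrays at equal weight the counts by age were as follows. At 3 months limma called 0 of 32 member genes, where 0.336% of all genes were called lower and 0.912% higher. At 5 months it called 0, against 0.656% lower and 2.31% higher. At 8 months 11 member genes fell and 0 rose, against 5.95% of all genes called lower and 6.97% higher. These 11 were 10 of the 12 genes above, without Rims2 and Slc17a7, and Syt11. At 3, 5 and 8 months the median member change was -0.10, -0.06 and -0.16, where all tested genes had medians of 0.00, 0.01 and -0.02. With 1 array left out at a time the member medians ran from -0.12 to -0.08, from -0.09 to -0.04 and from -0.17 to -0.12. The 5-month median of -0.04 was the one without wild-type replicate 2 of that age.

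Separation of the arrays at the brightest probe sets was already seen at 3 months. All 3 knockout arrays lay below all 3 wild-type arrays for 12 of 32 genes at 3 months, against 10.2% of all genes. This held for 7 genes at 5 months, against 9.76%, and for 14 at 8 months, against 14.4%. The opposite order was found for 2, 2 and 0 genes, against 10.6%, 12.7% and 12.8% of all genes. At their brightest probe sets, Syt4, Syn1, Cplx2 and Rab3a were separate at all 3 ages. Among the 12 genes at 3 months, dimmer tested probe sets of Snap25, Stx1a, Syt1, Syt4, Cplx2 and Rims2 had higher means in the knockout. Other dimmer ones of Syt1, Cplx2 and Rims2, and those of Rab3a, Bsn and Dnm1, had lower means. The summed signal of the members, with each gene at its brightest probe set, was 61480 to 66246 in the knockout and 66547 to 69115 in the wild type at 3 months. It was 63928 to 65137 against 66230 to 69300.0 at 5 months, and 59537 to 65043 against 68728 to 70086 at 8 months, so the groups did not overlap at any age. That sum is led by the brightest genes, such as Snap25.

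The number of 8-month calls depended on single arrays, most on replicate 2 of the knockout. Without replicate 2, 2 member genes were lower, Stx1a and Cplx2, both among the 11. Without replicate 1, 7 were lower, of which 6 were among the 11 and the other was Slc17a7, and Dnm1, Rab3a, Syt4, Syt11 and Unc13a did not pass. Without replicate 3, 12 were lower, including the 11. Without wild-type replicate 1, 2 or 3 of that age 7, 7 and 6 were lower, of which 6, 7 and 6 were among the 11. The calls of Syt4 and Syt11 at 8 months were lost with 14 and 13 of the 18 arrays left out in turn, and that of Dnm1 over ages with 7. With replicates 1 and 2 of the knockout both left out, the median member change at 8 months was -0.12. Only 1 knockout array then remained at that age, too few for a count of calls to be read. It was assumed to vary like the other groups. With the actin ratio as a covariate 9 member genes passed at 8 months, 6 of them among the 11, where 9.74% of all genes were called. With the Gapdh ratio 9 passed, 7 of them among the 11, where 9.76% of all genes were called. Under the actin covariate Syt1, Syt4, Syt11, Syn1 and Dnm1 did not pass at 8 months (adjusted p = 0.0747, 0.0603, 0.388, 0.11 and 0.132).

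**Figure D3:**
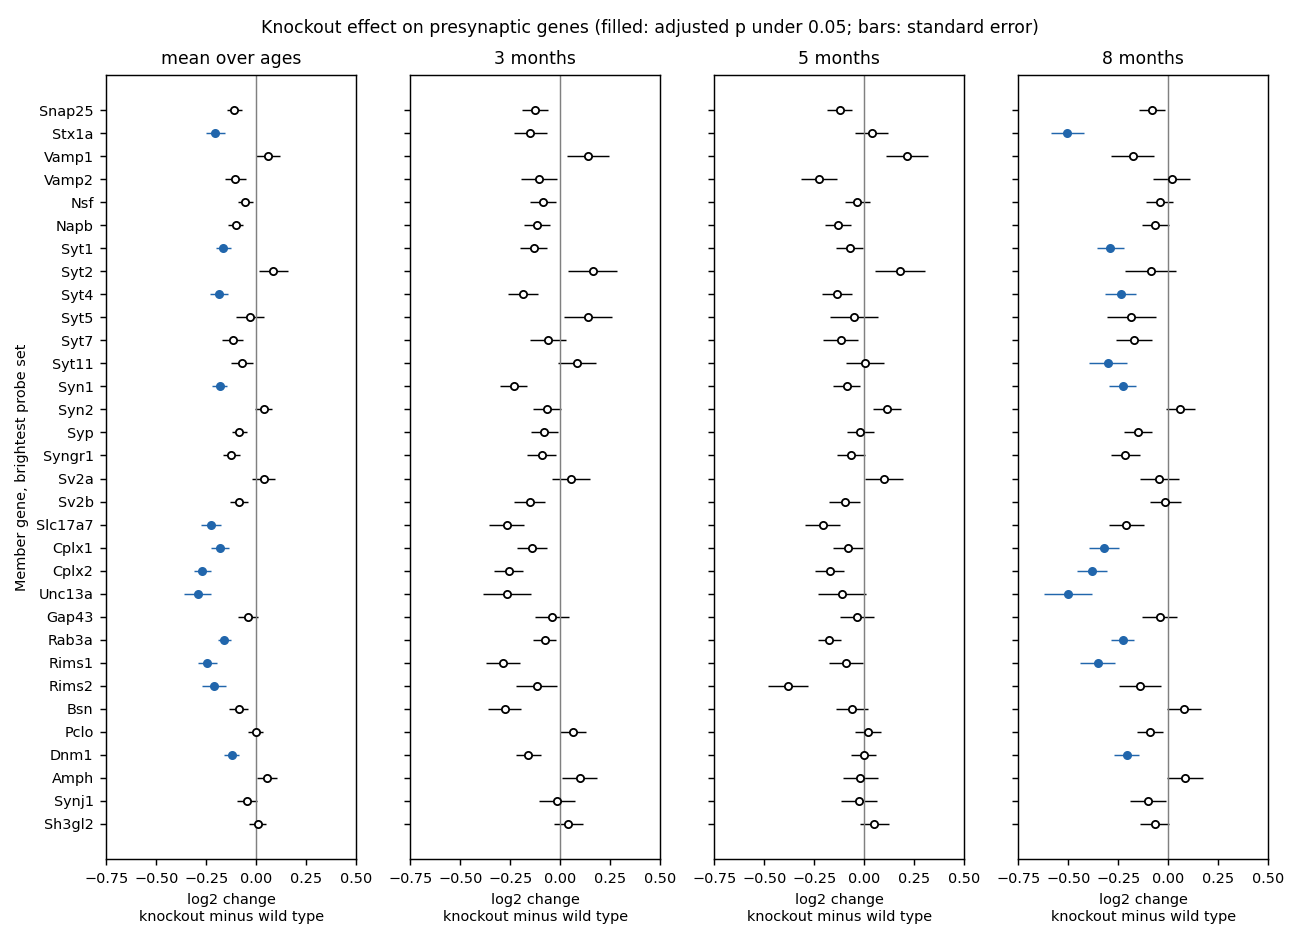
Difference of log2(signal + 16), knockout minus wild type, for the 32 presynaptic genes in 4 panels (average over ages, 3, 5 and 8 months), with bars of 1 standard error; filled points passed at an adjusted p under 0.05. Filled points appear in the average over ages (12 genes) and at 8 months (11 genes) and lie left of 0.

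Whether the knockout effect grew with age was tested as the 8-month effect minus the 3-month effect. Limma called 0 of 32 member genes, against 0.208% of all genes lower and 0.968% higher. Over all tested member probe sets, 3 of 78 were lower in this test, against 0.326% of all probe sets, and these 3 were dimmer ones of Vamp1 and Syt1. The values of the brightest probe sets nearest to the lower end were -0.38 ± 0.14 for Syt11, -0.35 ± 0.12 for Stx1a and -0.32 ± 0.15 for Vamp1 (adjusted p = 0.184, 0.149 and 0.331). From 3 to 8 months within the knockout 1 member gene, Stx1a, fell (-0.33 ± 0.08, adjusted p = 0.0255), against 2.12% of all genes lower and 3.67% higher. Without replicates 1 and 2 of the 8-month knockout this count was 0. Within the wild type 0 member genes passed from 3 to 8 months, against 0.016% lower and 0.008% higher. The member medians of this change were -0.04 for knockout and 0.04 for wild-type mice. They ran from -0.07 to -0.02 and from 0.01 to 0.06 with 1 array left out at a time. The knockout value of -0.02 was without replicate 2 of the 8-month group, and the wild-type value of 0.01 without replicate 2 of the 3-month group.

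Other probe sets of the same genes were read as a second measurement. In 24 member genes there were 46 dimmer tested probe sets. Averaged over ages 18 of these 46 fell and 1 rose, against 6.28% of all dimmer probe sets called lower and 5.03% higher, and the median was -0.14. At 3 months 0 passed and the median of the dimmer probe sets was -0.01, against -0.10 for the brightest of the 32 genes. At 8 months 16 fell and 0 rose, against 6.6% of all dimmer probe sets called lower, and the median was -0.25. Without replicates 1 and 2 of the 8-month knockout, the median of the dimmer member probe sets was -0.10 over ages and -0.12 at 8 months. Probe sets of a gene share the RNA of an array and are not independent of each other.

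Some dimmer probe sets fell where the brightest did not pass. For Vamp2, synaptobrevin 2 of the vesicle membrane, the dimmer probe set read 982, 872 and 907 at 3 months, 914, 934 and 614 at 5 months and 1046, 976 and 989.9 at 8 months in the wild type. In the knockout this Vamp2 probe set read 842, 839 and 953 at 3 months, 626, 716 and 762 at 5 months and 619, 489 and 766 at 8 months. It was lower on all knockout arrays at 8 months and fell by 0.33 ± 0.08 over ages (adjusted p = 0.00626), whereas the brightest differed by -0.11 ± 0.05. Of the other 2 tested Piccolo probe sets, both fell over ages, by 0.45 ± 0.08 and 0.36 ± 0.07 (adjusted p = 0.00103 and 0.00225). The dimmer Sv2b probe set fell by 0.33 ± 0.06 (adjusted p = 0.00143), an Nsf probe set fell by 0.16 ± 0.05 (adjusted p = 0.0277) and a Sh3gl2 probe set fell by 0.20 ± 0.06 (adjusted p = 0.0266).

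Synapsin 2 was the gene with a call in the opposite direction. A dimmer Syn2 probe set read 529, 466 and 412 at 3 months, 467, 550.0 and 536 at 5 months and 601, 546 and 581 at 8 months in the wild type. In the knockout it read 561, 639 and 662 at 3 months, 666, 599 and 617 at 5 months and 843, 743 and 562 at 8 months. All knockout arrays were above the wild type at 3 and 5 months, and at 8 months replicate 3 lay within the wild-type range. It rose by 0.32 ± 0.07 over ages (adjusted p = 0.00331). The brightest Syn2 probe set and the other 3 tested ones differed by 0.04 ± 0.04, -0.02 ± 0.04, 0.02 ± 0.05 and 0.02 ± 0.15, and did not pass.

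Several dimmer probe sets of Syt1, Cplx1, Vamp2 and Stx1a had larger 8-month changes than the brightest. For Syt1 a dimmer probe set changed by -0.87 ± 0.14 (adjusted p = 0.000446), against -0.29 ± 0.07 for the brightest. For Cplx1 the dimmest tested changed by -0.78 ± 0.14 (adjusted p = 0.000813), against -0.32 ± 0.08. The values for Vamp2 and Stx1a were -0.73 ± 0.14 and -0.77 ± 0.15 (adjusted p = 0.00135 and 0.00179), against 0.02 ± 0.09 and -0.50 ± 0.08. The part of RNA integrity in these changes was not tested, and signals are set beside the actin ratio here. Replicate 3 of the 5-month wild type had a ratio of 0.412, against 0.497 and 0.499 in replicates 1 and 2. There the Cplx1 probe set read 919.7, against 1287 and 1381. Replicate 1 of the 5-month knockout had a ratio of 0.389, against 0.463 and 0.473 in replicates 2 and 3. It read lowest of its group for Cplx1 (810 against 939 and 1053), Syt1 (666 against 871 and 859) and Vamp2 (626 against 716 and 762). Within the 8-month knockout, replicate 3, with the lowest ratio (0.432), had the highest Cplx1, Syt1 and Vamp2 signals (1029, 943 and 766). Replicate 1, with a ratio of 0.482, read 819, 766 and 619. Replicate 2, with a ratio of 0.448, read lowest (651, 623 and 489), so from replicate 1 to 2 the signals fell with the ratio. With the actin ratio as a covariate the 8-month changes were -0.71 for Syt1, -0.60 for Cplx1, -0.53 for Vamp2 and -0.83 for Stx1a (adjusted p = 0.00813, 0.014, 0.0209 and 0.00543). Without replicates 1 and 2 of the 8-month knockout they were -0.56, -0.41, -0.41 and -0.31 (adjusted p = 0.145, 0.235, 0.274 and 0.377).

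**Figure D4:**
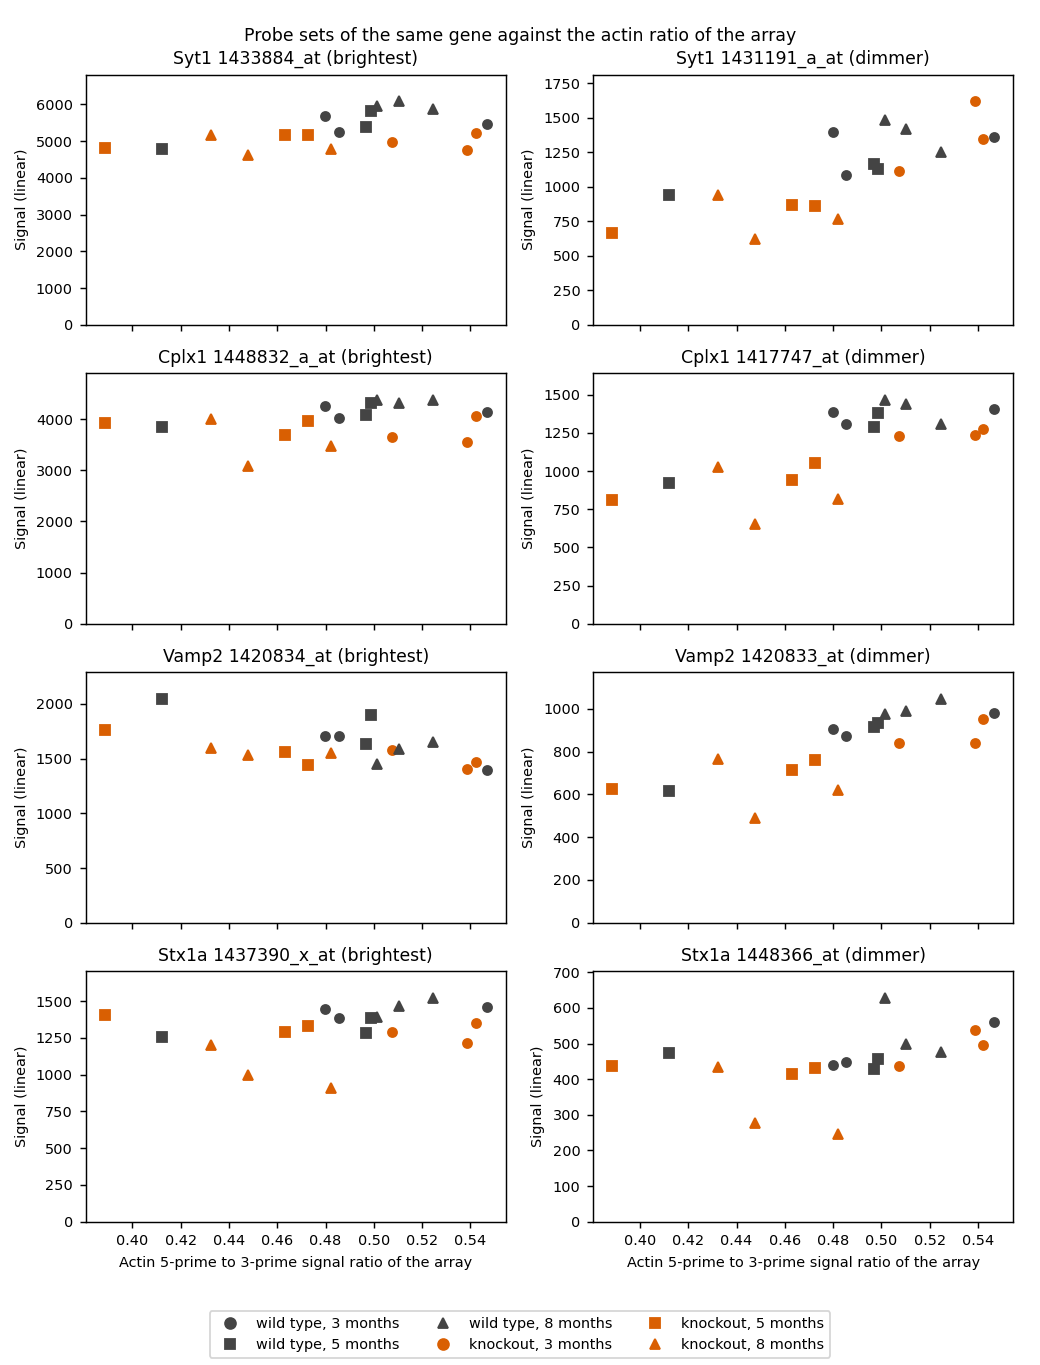
Signal (linear) of the brightest and of a dimmer probe set of Syt1, Cplx1, Vamp2 and Stx1a on each of the 18 arrays, against the array's actin 5-prime to 3-prime signal ratio (grey wild type, orange knockout; circles 3, squares 5 and triangles 8 months). The dimmer Syt1, Cplx1 and Vamp2 probe sets are low on the arrays with ratios of 0.389 and 0.412, 1 of each genotype, and in the 8-month knockout, where the array with the lowest ratio has the highest signal of the 3.

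Presynaptic genes outside the 32 members were read from a list chosen by function. Of 65 such genes 59 were tested. Averaged over ages 11 fell and 1 rose, against 6.43% of all genes called lower and 8.39% higher, with a median of -0.12. At 8 months 8 fell and 0 rose, against 5.95% of all genes called lower and 6.97% higher, with a median of -0.14. Rab27b, a GTPase of vesicle docking, fell by 0.26 ± 0.05, Syt13 by 0.23 ± 0.05 and Syngr3, a synaptogyrin, by 0.22 ± 0.05 over ages (adjusted p = 0.00198, 0.00192 and 0.00487). Sypl, a synaptophysin-like protein found beyond neurons, rose by 0.29 ± 0.06 (adjusted p = 0.00218). At 8 months the RIM relative Rims3 fell by 0.55 ± 0.12, Syngr3 by 0.36 ± 0.09, the vesicle carrier protein gene Scamp5 by 0.30 ± 0.08 and the SNAP adaptor Napg by 0.27 ± 0.07 (adjusted p = 0.00388, 0.00951, 0.0121 and 0.00948).

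Lists of other neuronal genes had medians below 0 as well. General neuronal genes outside the synapse had 5 of 19 lower and 0 higher over ages, with a median of -0.09. Over ages 6.43% of all genes were called lower and 8.39% higher. Postsynaptic genes had 9 of 17 lower and 1 higher, with a median of -0.18. At 8 months the medians were -0.14 and -0.24, beside -0.16 for the members. The difference between the lists was not tested.

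Averaged over ages, astrocyte and microglia markers moved the other way on the same arrays, and oligodendrocyte markers differed in direction between ages. Over ages 12 of 16 astrocyte markers rose and 0 fell, with a median of 0.28. Of 17 microglia and macrophage markers 13 rose and 1 fell, with a median of 1.21, where 8.39% of all genes were called higher. At 3 months 2 of 16 astrocyte markers rose, against 0.912% of all genes, with a median of 0.05. The summed astrocyte marker signal was 32207 to 34360 in the knockout and 31928 to 32612 in the wild type at 3 months. It was 40851 to 41240 against 31116 to 32042 at 5 months, and 42966 to 51846 against 31388 to 33151 at 8 months. The summed microglia marker signal was 7139 to 7586 against 4037 to 4345 at 3 months and 9430 to 10021 against 4337 to 5314 at 5 months. Of 13 tested oligodendrocyte markers 0 rose and 1 fell over ages, with a median of 0.02. At 3 months 11 of these 13 lay below 0, as the members did, with a median of -0.19 and 1 call. Their summed signal was then 24113 to 27089 in the knockout against 28450.3 to 31182 in the wild type, without overlap. It was higher in the knockout at 5 months (27876 to 29187 against 26174 to 27262) and at 8 months (29494 to 31546 against 26641 to 28236). Replicates 1 and 2 of the 8-month knockout, with summed member signals of 61933 and 59537 against 65043 in replicate 3, had the highest astrocyte sums of all arrays (51846 and 51288 against 42966). Of 11 tested cerebellum markers 2 fell over ages and 4 at 8 months, with medians of -0.13 and -0.28, where 6.43% and 5.95% of all genes were called lower. The part of glial or regional RNA in the presynaptic differences was not tested.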

How the data were processed

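Each of 18 RNA samples had an Affymetrix mouse array of its own, and the labels gave its genotype, age and sex. The deposited intensities are linear and had been scaled by the authors before deposit, as the values show: on each array the mean was 150 once the top and bottom 2% of probe sets were left out. The software behind them: not given in the sources used here. No 2 arrays held identical values.

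Values were analysed as log2(signal + 16), so folds of dim genes are understated. Left out were 64 control probe sets and, by mean signal, the dimmest 40% of the rest. With limma 3.58.1 (R 4.3.3), all 18 arrays entered a model of the 6 groups plus sex (lmFit, eBayes with variance trend), two-sided, with Benjamini-Hochberg adjustment over 27022 probe sets and a threshold of 0.05. Compared were knockout and wild type at each age and averaged over ages, the 8-month effect with the 3-month effect, and, within a genotype, 8 months with 3 months. Gene counts used each gene's brightest tested probe set with 1 symbol (12496 genes). The pipeline was tested on simulated data.

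The members, gene lists and tests were chosen with earlier results of these data known. Array values are given for members that passed in a comparison between genotypes and for at least 1 member of each role, and members whose probe sets disagree in the direction of a call are named. Of the other presynaptic genes, up to 4 that passed with the smallest p were named over ages and at 8 months. Snap25, Bsn and the dimmer probe sets were described after their values were seen. Promoters came from RefSeq (GRCm38.p6). Alternatives were other normalizations, pseudocounts of 1 and 64, filters, no sex term, no variance trend, array weights, only the groups compared, the next brightest probe set, and each array left out. Chosen after seeing the data were the 2 outlying 8-month knockout arrays left out together, and the actin or Gapdh ratio as a covariate.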

Additional observations from a re-analysis of the deposited data

Results flagged for a closer look

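Of the 78 member probe sets tested, 3 had a knockout effect at 8 months that differed from that at 3 months by limma's test of the difference, adjusted over 27022 probe sets, against 0.326% of all probe sets that were lower in this test. All 3 are dimmer probe sets of their genes.

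A dimmer Vamp1 probe set had a difference of -1.29 ± 0.26 (adjusted p = 0.0197). It read 310.0, 342 and 401 in the knockout at 3 months against 291, 286 and 209.5 in the wild type, and 135, 111 and 185 against 235, 313 and 275 at 8 months. The knockout arrays thus lay above the wild type at 3 months and below it at 8 months. The brightest Vamp1 probe set had a difference of -0.32 ± 0.15 (adjusted p = 0.331).

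For Syt1, 2 dimmer probe sets had differences of -0.95 ± 0.20 and -0.74 ± 0.17 (adjusted p = 0.0251 and 0.0335). The first read 766, 623 and 943 in the knockout against 1252, 1482 and 1418 in the wild type at 8 months, and the second 1211, 1058 and 1428 against 2013, 1937 and 2043, without overlap, while both overlapped at 3 months. The brightest Syt1 probe set had a difference of -0.16 ± 0.09 (adjusted p = 0.48).

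With the actin ratio as a covariate, the differences were -0.98 for Vamp1 and -0.72 and -0.48 for Syt1 (adjusted p = 0.125, 0.144 and 0.188). Without replicates 1 and 2 of the 8-month knockout they were -0.88, -0.64 and -0.49 (adjusted p = 0.251, 0.292 and 0.336). Groups of 3 arrays are too small for the test for a single array far from its group.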

How the results depend on the processing

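Without replicates 1 and 2 of the 8-month knockout together, the member genes called numbered 6 over ages, 3 at 3 months, 1 at 5 months, 0 at 8 months and 0 from 3 to 8 months in the knockout. That fit left 1 array in the 8-month knockout, which weakens every comparison that uses that group. With 1 array left out at a time, the ranges were 11 to 14 over ages, 0 to 1 at 3 and at 5 months, 2 to 12 at 8 months, 0 to 2 for the effect at 8 minus that at 3 months, 0 to 6 from 3 to 8 months in the knockout and 0 to 0 in the wild type. At 8 months the count was 7 with no filter and 4 with no variance trend or only the groups compared. At 5 months it was 1 with quantile normalization, the 60% filter, no sex term or array weights. It was 2 with the actin or the Gapdh covariate, where 2.79% and 1.71% of all genes were called. At 3 months it was 5 with array weights and 1 with only the groups compared. For the effect at 8 minus that at 3 months it was 1 with array weights or only the groups compared, and 2 with the next brightest probe set. From 3 to 8 months in the knockout it was 2 with quantile normalization, the 60% filter or no sex term, 5 with array weights, 7 with the next brightest probe set, and 0 with no variance trend, only the groups compared, or the actin or Gapdh covariate. Over ages it was 8 with no variance trend and 16 with the next brightest probe set. The fit with only the groups compared was not run for the average over ages, which uses all groups.

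Changes close to 0 turned sign: Gap43 at 8 months was 0.0432 with the actin and 0.0317 with the Gapdh covariate and ran from -0.0956 to 0.00046 with 1 array left out. Over ages Gap43 was 0.00506 and Syt11 0.00767 with the Gapdh covariate. The causes were not tested beyond what each alternative leaves out. No paired analysis was possible because the labels number the samples 1 to 18, with no replicate number shared between groups. The signal over background limits the 8 dim probe sets, which were not tested.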

Other observations

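Of the 59 presynaptic genes tested outside the members, 11 fell over ages, and 8 of these are not named above for that comparison. Cplx3, a complexin of fewer cell types, fell by 0.40 ± 0.11 (limma, adjusted p = 0.0142) and was dim, with mean signals of 98.3 on wild-type and 71.2 on knockout arrays. The RIM relative Rims3 fell by 0.26 ± 0.07, Syt16 by 0.22 ± 0.07 and Napg by 0.16 ± 0.04 (adjusted p = 0.0112, 0.029 and 0.00703). Scamp5 fell by 0.14 ± 0.04, Cadps2, a factor of dense-core vesicle release, by 0.14 ± 0.04 and the neurexin gene Nrxn3 by 0.13 ± 0.04 (adjusted p = 0.0316, 0.0447 and 0.0277). Among vesicle transporters, Slc17a6 (VGLUT2) differed by 0.01 ± 0.05 and Slc32a1, which loads GABA and glycine, by -0.12 ± 0.05 over ages (adjusted p = 0.945 and 0.124). At 8 months Slc32a1 fell by 0.30 ± 0.09 (adjusted p = 0.0236). In the clathrin coat, the light chain Cltb fell by 0.16 ± 0.05 (adjusted p = 0.0333), while the light chain Clta and the heavy chain Cltc differed by -0.02 ± 0.03 and 0.01 ± 0.03 (adjusted p = 0.794 and 0.837). Of the Munc13 relatives of Unc13a, Unc13b differed by -0.08 ± 0.09 and Unc13c by 0.04 ± 0.05 (adjusted p = 0.644 and 0.666). Apart from the 8 that fell over ages, these genes were picked from the list after their values were seen, and differences between relatives were not tested.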
